A study of Mus musculus with 8 samples.

Results

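Genes of 10 secreted or feedback components of the Wnt pathway were followed in mouse embryonic fibroblasts (MEFs) grown with or without 5-aza-2'-deoxycytidine (5-aza-dC). They were the ligands Wnt10a, Wnt5a and Wnt4, the secreted antagonists Sfrp1, Sfrp2, Sfrp4, Dkk2, Dkk3 and Wif1, and Axin2, an intracellular feedback inhibitor. Members were taken by name: every probe whose annotated gene symbol was on this list was used, which gave 14 probes of 25697 and 10 genes of 16590 on the array. A probe was counted as detected where its detection p was under 0.05, and 12 of the 14 probes, from 9 of the 10 genes, passed a filter of 2 detected arrays out of 8 and went into the test. Dkk2 and 1 of the 3 Dkk3 probes were not.

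5-aza-dC is a cytidine analog that is built into DNA and traps DNA methyltransferases, so that methylation is lost as cells divide. The MEFs, a line made earlier and given to the study, lacked Trp53 (Trp53-/-), were wild type for Dnmt1 (Dnmt1+/+) and were of unknown background strain. Both groups carried these alleles and were cultured for 72 h, the 5-aza-dC group with the drug (1 µM in the sample labels, a dose on which the methods differ) and the control group with its solvent, DMSO. Each group held 2 biological replicates of 2 technical Illumina arrays. No source says whether the replicates were separately treated cultures, and p-values measure the spread between these samples only.

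Wnt proteins are lipid-modified secreted ligands that bind Frizzled receptors, with LRP co-receptors for the branch that stabilises beta-catenin and with ROR or RYK receptors for branches that do not need it. Outside the cell the ligands are held in check by soluble proteins: secreted Frizzled-related proteins (Sfrp) and Wif1 bind the ligands themselves, whereas Dickkopf proteins (Dkk) such as Dkk2 bind the LRP co-receptors. Axin2 is a scaffold of the complex that degrades beta-catenin and is itself switched on by beta-catenin with TCF factors, and fibroblasts are a common source of both ligands and antagonists.

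The arrays were of similar quality. Mean signal ran between 295.1 and 376 intensity units and 49.97 to 52.91% of probes were detected per array. Levels correlated at 0.9978 to 0.9983 between technical arrays, at 0.9929 to 0.9932 between 5-aza-dC replicates, at 0.9972 to 0.9973 between control replicates and at 0.9569 to 0.9628 between groups. The 5-aza-dC replicates differed from each other with an SD over genes of 0.32 log2 units, against 0.17 for the control replicates. Beside the Wnt genes, the summed linear level of 11 fibroblast markers was 17000 to 20650 on 5-aza-dC arrays and 35300 to 41920 on control arrays, with 7 of 10 tested markers lower, Thy1 higher and Fap undetected. For these markers, higher and lower mean an adjusted p under 0.05 (limma). Of all 9502 genes tested, 26.3% were higher and 25.7% lower at this threshold. The sum of 7 epithelial markers was 1649 to 1750 on 5-aza-dC arrays and 163.7 to 176.9 on control arrays, with 5 of 6 tested markers higher and Krt5 undetected. That of 5 skeletal muscle markers was 438.7 to 476 on 5-aza-dC arrays and 141 to 156 on control arrays, with 3 of 4 tested higher and Ckm undetected. The sum of 4 neural markers was 188.1 to 217.6 on 5-aza-dC arrays and 303.8 to 402.2 on control arrays. Of the 2 neural markers tested, Map2 was lower and Tubb3 was not called. Nefl and Gfap were undetected. The sums of 6 endothelial markers (143.3 to 157 on 5-aza-dC and 141.7 to 148 on control arrays) and 4 blood markers (135.8 to 143.9 on 5-aza-dC and 98.78 to 111.4 on control arrays) were low, with Cdh5, Kdr, Tek, Ptprc, Adgre1 and Lyz2 undetected. Only 1 marker of each list was tested, Emcn (endothelial) and Cd14 (blood), and both were higher. Emcn was undetected on control arrays and passed the filter through treated arrays alone. The same held for Krt8, Krt14, Krt18 and Cldn4 among the epithelial markers and for Des and Myod1 among the muscle markers. The fibroblast marker Lum was undetected on treated arrays and passed through control arrays alone. For all of these the direction was a condition of their being tested, so the counts of their lists were partly fixed by the filter. The part of these markers in the results on Wnt genes was not tested.

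Sequence upstream of the members is shown because the DNA methylation that the drug lowers lies mostly at CG dinucleotides. RefSeq promoter windows (GRCm38.p6, 250 bases before to 50 after the annotated start) were at hand for 5 of the 10 members, Wnt4, Sfrp2, Dkk2, Wif1 and Axin2. 3 of them are printed 5′ to 3′ with every CG in capitals: Sfrp2, whose level differed most between the groups, Wnt4, the richest of the 5 in CG, and Dkk2, the poorest and the undetected member.
Sfrp2, plus strand, chr3:83766071-83766370: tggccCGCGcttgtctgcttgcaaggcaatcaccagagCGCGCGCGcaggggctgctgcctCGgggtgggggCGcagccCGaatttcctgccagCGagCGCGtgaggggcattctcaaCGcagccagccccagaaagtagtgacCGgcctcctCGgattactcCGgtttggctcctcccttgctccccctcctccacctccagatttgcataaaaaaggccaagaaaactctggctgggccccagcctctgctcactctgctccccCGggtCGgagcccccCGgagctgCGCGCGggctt
Wnt4, plus strand, chr4:137277385-137277684: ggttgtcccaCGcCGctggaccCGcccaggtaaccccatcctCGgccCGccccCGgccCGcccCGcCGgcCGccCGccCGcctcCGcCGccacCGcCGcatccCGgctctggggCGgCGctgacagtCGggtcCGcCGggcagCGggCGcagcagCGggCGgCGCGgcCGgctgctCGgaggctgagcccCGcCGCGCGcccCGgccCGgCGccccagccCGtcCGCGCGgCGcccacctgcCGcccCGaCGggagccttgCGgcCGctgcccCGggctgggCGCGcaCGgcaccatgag
Dkk2, plus strand, chr3:132085042-132085341: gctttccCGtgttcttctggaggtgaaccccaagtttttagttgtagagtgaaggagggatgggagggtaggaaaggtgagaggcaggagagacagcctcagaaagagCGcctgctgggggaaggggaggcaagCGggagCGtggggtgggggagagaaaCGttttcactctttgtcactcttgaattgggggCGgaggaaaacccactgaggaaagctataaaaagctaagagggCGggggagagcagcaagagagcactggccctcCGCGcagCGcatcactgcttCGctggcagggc

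The Wnt4 window held 51 CG dinucleotides, a number reached by 0.7% of the 32851 mouse promoter windows, whose median was 7. Axin2 held 31 (reached by 10.6%), Wif1 25 (18.4%), Sfrp2 22 (23.1%) and Dkk2 11 (41.4%). In the Sfrp2 window the CG dinucleotides lay in the upstream stretch and again just after the start, with a gap between. TCF/LEF factors recognise sites that contain CTTTGA or CTTTGT, and these letters were searched on both strands. CTTTGA was in none of the 5 windows (16% of all windows) and CTTTGT only in that of Dkk2 (18.7%). TATAAA, the core of a TATA box, was searched in the same way and was in the windows of Dkk2 and Wif1 (13.6%). In the Wif1 window it lay on the opposite strand and near the upstream end, where a TATA box would not be placed. These matches describe the letters of the windows, and DNA methylation was not among the measurements used here.

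**Figure D1:**
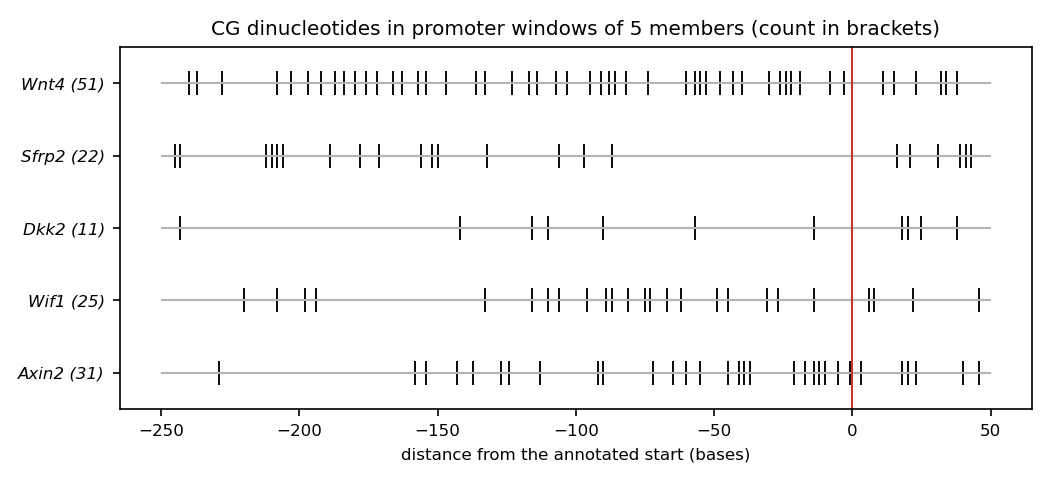
Positions of CG dinucleotides in the RefSeq promoter windows (GRCm38.p6) of 5 members, as distance in bases from the annotated start (red line); each black tick is 1 CG and the count stands in brackets. Wnt4 is the densest with 51 and Dkk2 the sparsest with 11.

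Of the 9 members tested, 3 were higher and 4 lower in 5-aza-dC MEFs at an adjusted p under 0.05 (limma, 2 biological replicates a group, Benjamini-Hochberg adjustment over all 9502 genes). Among all genes tested 52.0% passed this threshold, 26.3% as higher and 25.7% as lower, so that a call was common on these arrays. The median log2 difference over the 9 members was 0.04, and over all genes tested it was -0.02. Sfrp2 and Dkk3 fell most, Wnt5a and Wnt10a less, Sfrp1, Sfrp4 and Wnt4 rose, and Wif1 and Axin2 were not called. All levels below are log2 intensities after background correction and quantile normalization, given in the order replicate 1, arrays 1 and 2, then replicate 2, arrays 1 and 2; an offset of 16 was added before taking logs, so differences of dim probes are understated. In RNA from whole cultures, fewer cells of a type and less RNA per cell cannot be told apart.

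**Figure D2:**
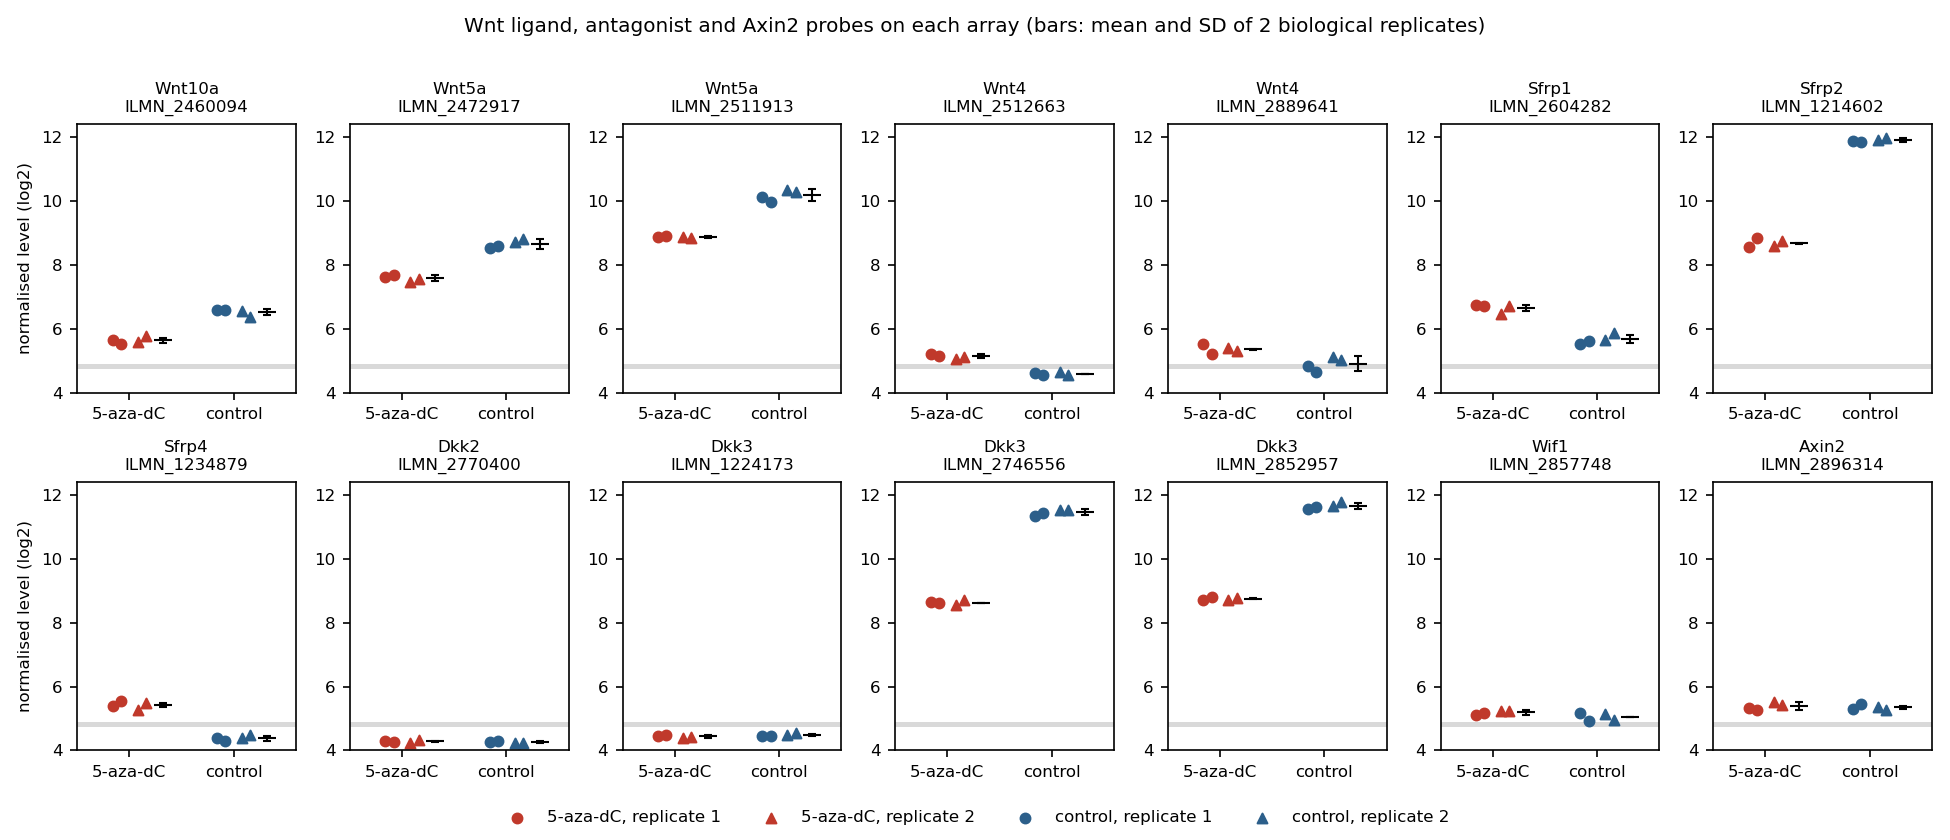
Log2 level of the 14 member probes on every array, with 5-aza-dC (red) left of control (blue), circles for replicate 1 and triangles for replicate 2; the black bar is the mean ± SD of 2 biological replicates, and the grey band spans the lowest level of any detected probe per array, 4.73 to 4.88. Sfrp2 and both detected Dkk3 probes lie far lower in 5-aza-dC MEFs, and Dkk2 and the third Dkk3 probe lie below the band in both groups.

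Wnt5a, a ligand that acts mostly through branches without beta-catenin and guides cell polarity and outgrowth, had the brighter of its probes (ILMN_2511913) at 8.86, 8.90, 8.87 and 8.83 on 5-aza-dC arrays, against 10.13, 9.97, 10.35 and 10.27 on control arrays. All 4 treated values lay below all 4 control values. The log2 fold change was -1.31 ± 0.13 (SE; 95% interval -1.63 to -0.99; adjusted p = 0.0006504), a 2.49-fold fall. The second Wnt5a probe (ILMN_2472917) read 7.60, 7.69, 7.47 and 7.55 on 5-aza-dC arrays, against 8.52, 8.57, 8.71 and 8.80 on control arrays. It fell as well, by 1.07 ± 0.12 on the log2 scale (adjusted p = 0.0007864 over all probes), so both probes of the gene moved the same way.

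Wnt10a, a beta-catenin ligand with known roles in tooth, hair and skin, was far dimmer, with levels of 5.64, 5.53, 5.59 and 5.77 on 5-aza-dC arrays, against 6.57, 6.57, 6.55 and 6.37 on control arrays. The groups did not overlap, and the probe was detected on all 8 arrays. It fell by 0.88 ± 0.10 on the log2 scale (95% interval -1.14 to -0.63, adjusted p = 0.001167), or 1.85-fold. With the offset raised to 50 the log2 fold change was -0.59, and with the authors' normalised values it was -0.57, both still called.

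Wnt4, a ligand needed for kidney tubules and the female reproductive tract, lay close to background. Its brighter probe (ILMN_2889641) read 5.53, 5.19, 5.40 and 5.29 on 5-aza-dC arrays, against 4.83, 4.65, 5.10 and 5.02 on control arrays, and was detected on all 4 treated arrays but on only 2 control arrays, both of replicate 2. The groups did not overlap, and the log2 fold change was 0.45 ± 0.13 (95% interval 0.13 to 0.77, adjusted p = 0.02966). The other probe (ILMN_2512663) read 5.20, 5.14, 5.05 and 5.12 on 5-aza-dC arrays, against 4.61, 4.56, 4.64 and 4.54 on control arrays, where it was never detected. It was at least 1.19-fold higher (adjusted p = 0.003661 over all probes), a bound that sets each control array at the level of its dimmest detected probe. This dimmer probe passed the filter through its treated arrays alone, so that a higher level in 5-aza-dC MEFs was a condition of its being tested. The call on the brighter probe was lost without control replicate 1 (0.29, adjusted p = 0.1939) and with the authors' normalised values (0.21, adjusted p = 0.05493).

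Sfrp2, a Frizzled-related protein that fibroblasts secrete into their matrix, showed the largest difference of the 9 members tested. Its levels were 8.55, 8.83, 8.57 and 8.75 on 5-aza-dC arrays, against 11.86, 11.85, 11.90 and 11.96 on control arrays. In unnormalised signal this was 355.8 to 488 intensity units in 5-aza-dC MEFs, against 3477 to 4148 units in control MEFs. The treated arrays were low without exception and the groups lay far apart. The log2 fold change was -3.22 ± 0.11 (95% interval -3.50 to -2.94, adjusted p = 3.649e-05), a 9.33-fold fall, and 24 of the 9502 genes fell further. The promoter window of this gene, printed above, held 22 CG dinucleotides, counted on both sides of the annotated start.

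The 3 genes whose 8 array values, each set against its control mean, lay nearest to those of Sfrp2 were Srpx, Chodl and Slc1a3. Their root mean square distances from Sfrp2 over the 8 arrays were 0.07, 0.09 and 0.09 log2 units. Of these only Slc1a3, with a log2 fold change of -3.21, was detected on all treated arrays. Srpx was detected on 1 treated array and Chodl on none, where it was at least 6.42-fold lower, so that their distances rest on values at background. The likeness also depended on the offset: with 50 in place of 16 the log2 fold changes were -3.12 for Sfrp2, -2.86 for Slc1a3, -2.20 for Srpx and -1.98 for Chodl. Slc1a3 encodes a glutamate transporter and Chodl a C-type lectin-like membrane protein. The likeness was sought over all genes tested.

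Sfrp1 and Sfrp4, of the same family, differed in the opposite direction. Sfrp1 read 6.73, 6.70, 6.45 and 6.70 on 5-aza-dC arrays, against 5.53, 5.62, 5.65 and 5.87 on control arrays, with no overlap and detection on all 8. It rose by a log2 fold change of 0.98 ± 0.12 (95% interval 0.69 to 1.27, adjusted p = 0.001249), which is 1.97-fold. Sfrp4 read 5.40, 5.54, 5.27 and 5.49 on 5-aza-dC arrays, all of them detected, against 4.38, 4.28, 4.38 and 4.48 on control arrays, none of them detected. It was at least 1.47-fold higher in 5-aza-dC MEFs (log2 fold change as measured 1.04 ± 0.10, adjusted p = 0.0005021). Sfrp4 passed the filter through its treated arrays alone, so that a higher level in 5-aza-dC MEFs was a condition of its being tested. The log2 sizes were 0.66 for Sfrp1 and 0.49 for Sfrp4 with an offset of 50, and 0.64 and 0.62 with the authors' normalised values, each still called.

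Dkk3, a divergent Dickkopf protein for which binding to LRP co-receptors is not established as it is for Dkk2, was the second of the strong falls. The brightest probe (ILMN_2852957) read 8.71, 8.81, 8.70 and 8.77 on 5-aza-dC arrays, against 11.57, 11.61, 11.64 and 11.78 on control arrays. Signals were 393.5 to 492.6 intensity units in 5-aza-dC MEFs, against 2969 to 3514 units in control MEFs, and no treated array came near a control array. The log2 fold change was -2.90 ± 0.12 (95% interval -3.19 to -2.61, adjusted p = 4.801e-05), a 7.48-fold fall that 36 genes exceeded. A second probe (ILMN_2746556) read 8.63, 8.61, 8.54 and 8.71 on 5-aza-dC arrays, against 11.34, 11.42, 11.51 and 11.52 on control arrays, a 7.09-fold fall (adjusted p = 2.216e-05 over all probes). The third probe (ILMN_1224173) was undetected on all 8 arrays, at 4.38 to 4.49 on 5-aza-dC arrays and 4.44 to 4.54 on control arrays. Both detected probes thus gave like falls, and the third gave no usable value.

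Dkk2 was undetected throughout, with detection p-values of 0.531 to 0.975 on 5-aza-dC arrays and 0.6 to 0.974 on control arrays. Its levels were 4.22 to 4.32 in 5-aza-dC MEFs and 4.23 to 4.31 in control MEFs, below the lowest detected probe on any array. No fold is given for it. A change within this range was not detectable with its single probe.

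Wif1, which binds Wnt ligands through its own WIF domain, was dim but detected on all 8 arrays, at 5.10, 5.18, 5.22 and 5.24 on 5-aza-dC arrays and 5.18, 4.91, 5.14 and 4.96 on control arrays. Single arrays overlapped, although the means of the replicates did not. The log2 fold change of 0.14 ± 0.09 did not pass the test (95% interval -0.09 to 0.37, adjusted p = 0.2569).

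Axin2, the member that beta-catenin itself switches on, read 5.34, 5.27, 5.50 and 5.43 on 5-aza-dC arrays and 5.30, 5.46, 5.37 and 5.26 on control arrays. It was detected on every array and the groups overlapped. Its log2 fold change was 0.04 ± 0.10 (95% interval -0.21 to 0.29, adjusted p = 0.772), so that on this scale the interval leaves room for a modest change either way. The sign turned with the authors' normalised values (-0.001, adjusted p = 0.991) and without 5-aza-dC replicate 2 (-0.04, adjusted p = 0.7933).

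Of the 9 members tested, each by its brightest probe, only Axin2 overlapped between the groups at the level of replicate means. Over all 9502 genes, taken the same way, 76.5% did not overlap. The further probes tested of Wnt5a, Wnt4 and Dkk3 did not overlap either. Sfrp4 and the dimmer Wnt4 probe had passed the filter through treated arrays alone. On the scale of all probes kept, 52.2% of 14308 passed the test.

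**Figure D3:**
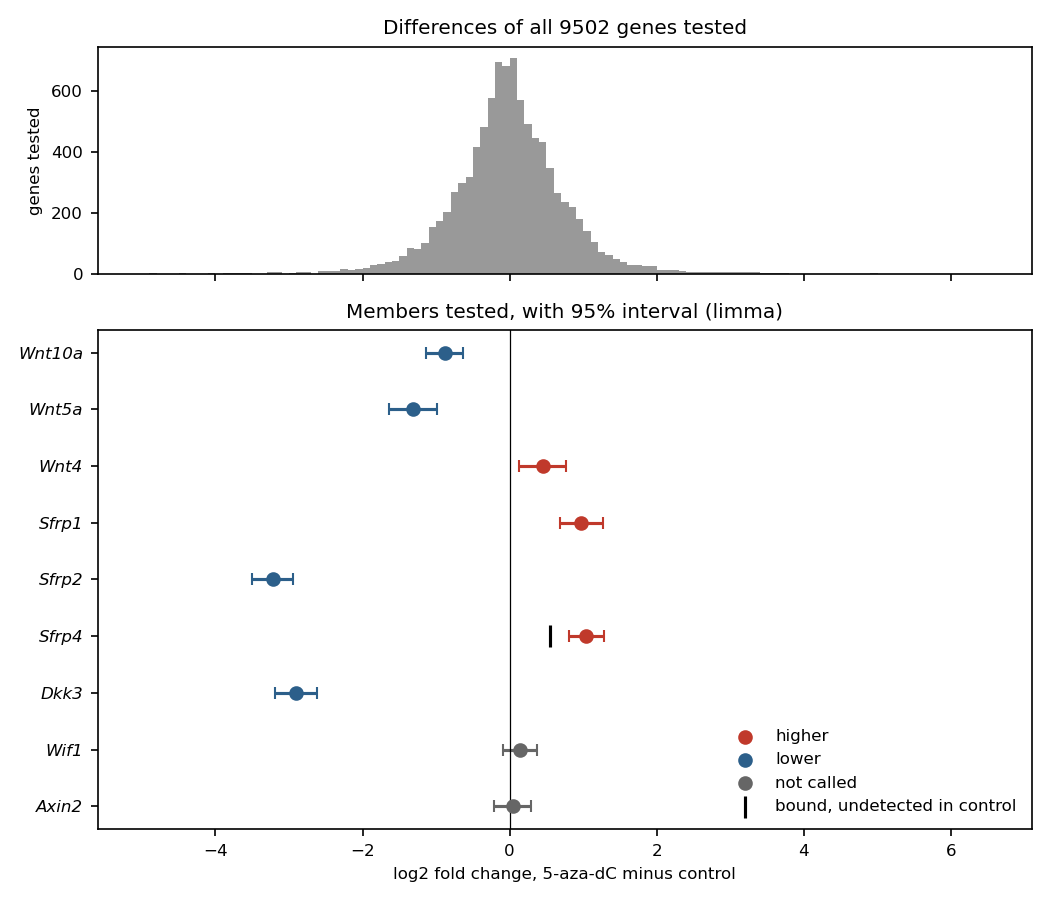
Upper panel, number of the 9502 genes tested by log2 fold change, 5-aza-dC minus control; lower panel, the 9 members tested with 95% intervals from limma (red higher, blue lower, grey not called), with the black mark at the bound for Sfrp4, which was undetected in control MEFs. Sfrp2 (-3.22) and Dkk3 (-2.90) lie in the far left tail of the histogram, and the intervals of Wif1 and Axin2 span 0.

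**Figure D4:**
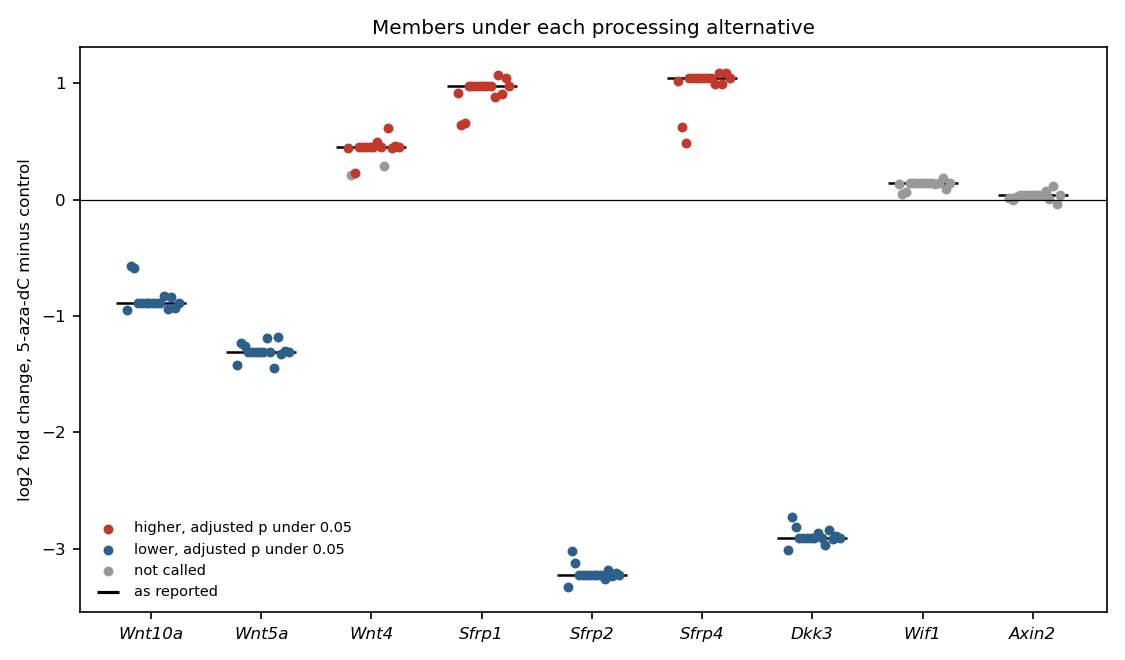
Log2 fold change (5-aza-dC minus control) of each member under 15 processing alternatives; points are coloured by call and the horizontal black mark is the value reported. Wnt10a, Wnt5a, Sfrp1, Sfrp2, Sfrp4 and Dkk3 kept their call under all 15, Wif1 was called under none, Axin2 stayed near 0, and Wnt4 lost its call under 2.

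The remaining genes of the pathway give the setting of the 10 members. Of 106 listed, 98 were on the array and 66 were tested; 16 were higher and 23 lower in 5-aza-dC MEFs, which is 59.09% beside the 52.0% of all genes tested. Their median log2 fold change was -0.14, beside -0.02 over all genes. Each gene counts once in these totals, although some stand in more than 1 of the lists. Of the 66, 7 were undetected on all control arrays and 3 on all 5-aza-dC arrays, and could pass the filter only through the other group.

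Of 16 other Wnt ligands on the array, 4 were tested. Wnt5b, the closest relative of Wnt5a, was higher (log2 fold change 0.59, adjusted p = 0.005752; detected on 4 treated arrays and 1 control array), unlike Wnt5a. Wnt2 was called higher as well (0.46, adjusted p = 0.03191), but was detected on only 2 treated arrays and no control array, so that no fold could be bounded, and it lost the call without control replicate 1 (adjusted p = 0.06154) or control replicate 2 (adjusted p = 0.05643). Wnt16 was at least 1.37-fold lower (adjusted p = 0.002882) and undetected on all treated arrays. Wnt10b was not called (-0.14, adjusted p = 0.2823). The other 12 ligands did not pass the detection filter.

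The 10 other secreted antagonists on the array gave 6 tested genes, of which 3 were higher and 0 lower (limma; also 0 at an unadjusted p under 0.05). Of the 6, 4 were undetected on all control arrays and passed the filter through treated arrays alone, so the direction of the count was largely fixed by the filter. Notum, an enzyme that removes the lipid of Wnt ligands, was at least 1.61-fold higher (adjusted p = 0.0005649), and Frzb, another Frizzled-related protein, at least 1.35-fold (adjusted p = 0.001188). Both were detected on all 4 treated arrays and no control array. Sostdc1, which binds LRP co-receptors and BMPs, was higher by 0.50 on the log2 scale (adjusted p = 0.01492), a call lost without control replicate 2 (adjusted p = 0.1136). The median over the 6 was 0.29.

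The genes for ligand release and for R-spondins, which potentiate Wnt signals, were lower: all 4 tested of 7 on the array passed the test as lower, with a median of -1.27. Rspo2 fell 2.82-fold (adjusted p = 0.0002184), with a log2 fold change of -0.91 at an offset of 50. On 5-aza-dC arrays it was detected but read only 4.86 to 5.17, near the lowest detected levels there, 4.73 to 4.81. Porcn, the enzyme that attaches the lipid to Wnt ligands, fell by 1.48 (adjusted p = 0.0002938), although its probes ran between -1.48 and -0.58. Wls, the carrier that takes the ligands to the cell surface, fell by 1.06 (adjusted p = 0.002107). The fourth was Rspo3, named after its value was seen (-1.06, adjusted p = 0.00151). It was detected on 2 treated arrays and all 4 control arrays, so that its size rests on treated values at background.

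Among receptors, 14 of 18 on the array were tested, 1 was higher and 7 were lower, with a median of -0.31. Fzd1 fell by 2.57 on the log2 scale (5.92-fold, adjusted p = 4.801e-05) and was detected on 1 treated array and all 4 control arrays, so that this size rests on treated values at background; with an offset of 50 or the authors' normalised values the log2 fold change was -1.64. Fzd2 fell by 2.27 (4.83-fold, adjusted p = 9.14e-05), and Ptk7, a planar polarity co-receptor, fell by 1.21 (adjusted p = 0.003883). The receptor that rose was Fzd3, named after its value was seen, at least 1.81-fold (adjusted p = 0.0004446) and undetected on control arrays.

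Of 26 cytoplasmic and nuclear components on the array, 24 were tested, 4 were higher, 7 lower and 13 not called. Leaving out 1 replicate gave 2 to 6 higher and 5 to 10 lower, with 2 higher without either control replicate. Tle2, a Groucho-type co-repressor of TCF factors, fell by 2.29 on the log2 scale (adjusted p = 6.732e-05), and its log2 fold change was -1.65 at an offset of 50. Csnk1d, a casein kinase, rose by a log2 fold change of 1.03 (adjusted p = 0.002162), with its 5 probes between 0.06 and 1.10. Bcl9l, a beta-catenin co-activator, fell by 0.92 (adjusted p = 0.002079), with its other probe at -0.04. Ctnnb1, the gene of beta-catenin, looked up after the values were seen, had a log2 fold change of -0.30 that was not called (adjusted p = 0.2073).

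Of 9 planar polarity genes on the array, 6 were tested, 1 was higher and 2 were lower. Dact1, a Dishevelled-binding protein, was at least 1.47-fold lower (adjusted p = 0.005972). It was undetected on all treated arrays and passed the filter through control arrays alone. Daam2, a formin, fell by 0.53 on the log2 scale (adjusted p = 0.007047). It was detected on 2 treated arrays and all 4 control arrays, so that this size rests on treated values near background. Vangl1, a core polarity membrane protein, was higher by 0.43 (adjusted p = 0.01725), a call lost without control replicate 1 (adjusted p = 0.1176) or 2 (adjusted p = 0.1249).

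Feedback and target genes of beta-catenin, many of which other signals also regulate, went both ways. Of 16 on the array 11 were tested, 6 were higher and 2 lower, and the median was 0.64. Fosl1, an AP-1 transcription factor, was at least 10.7-fold higher (adjusted p = 2.395e-05) and undetected on all control arrays. This bound is on the scale with an offset of 16: the log2 fold change as measured was 3.62, against 2.55 with an offset of 50 and 2.52 with the authors' normalised values. Ccnd1, cyclin D1, rose 4.08-fold (adjusted p = 0.0001421). Ccn4, a secreted matrix protein also called Wisp1, fell 7.16-fold (adjusted p = 0.0001741). Axin2, the member from this class, was not called.

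**Figure D5:**
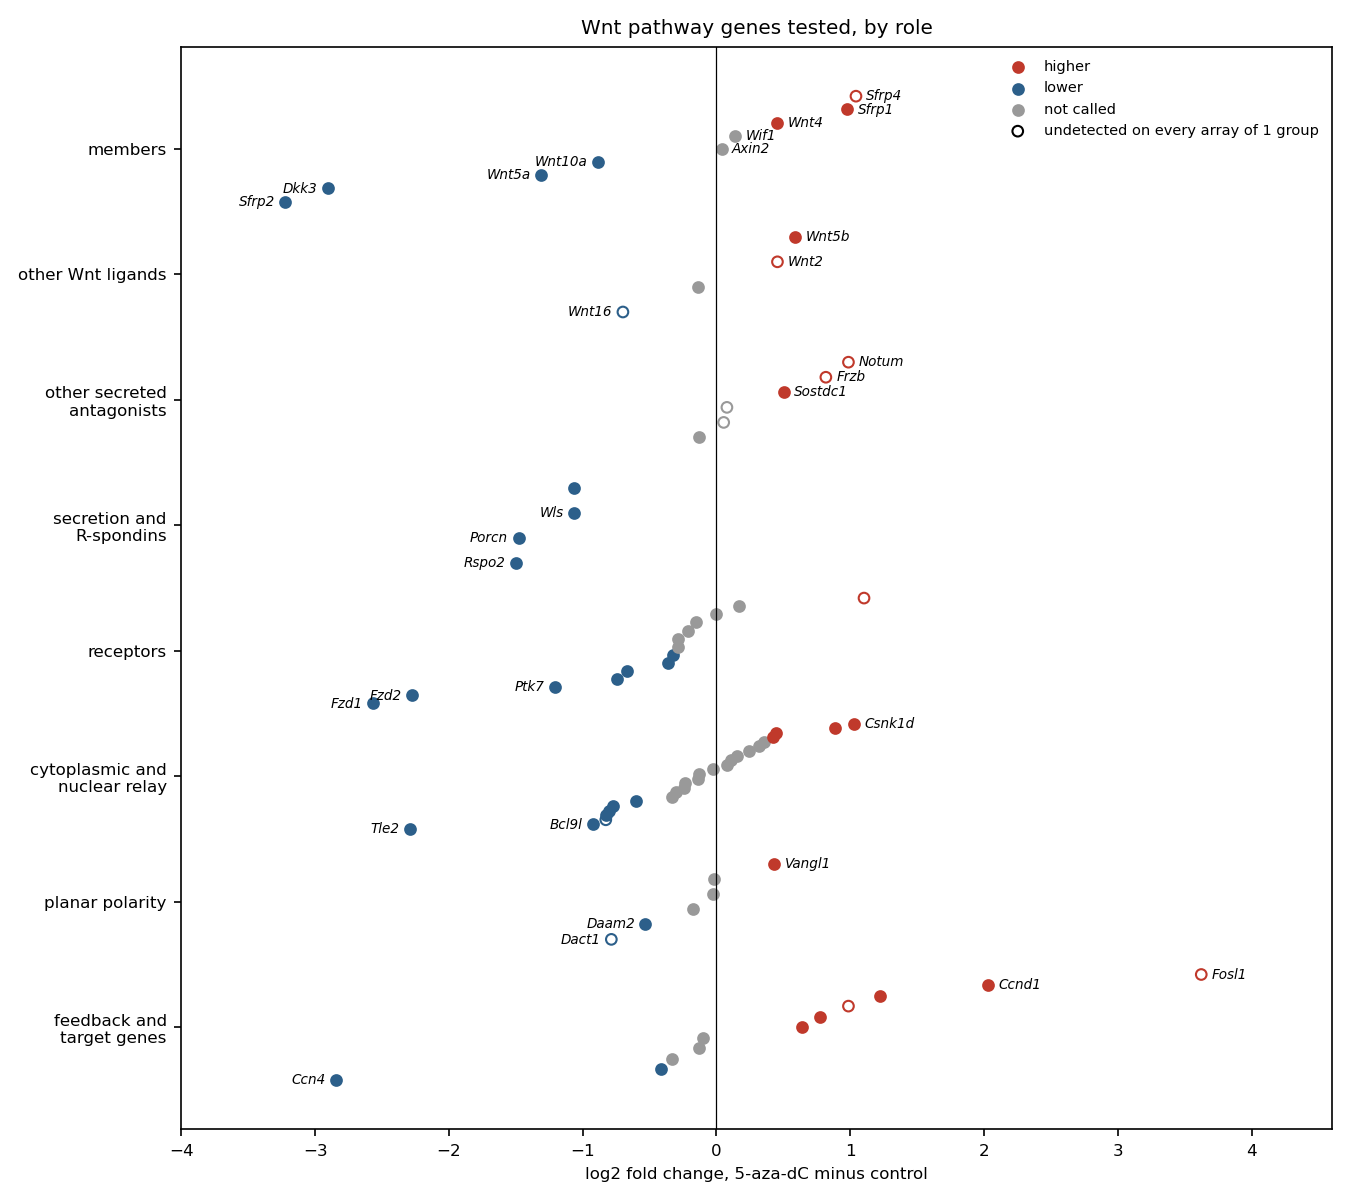
Log2 fold change (5-aza-dC minus control) of every Wnt pathway gene tested, by role; red is higher, blue lower and grey not called, and open circles are genes undetected on every array of 1 group, for which the position is no measure of size. The members and the called genes with the largest differences per list are named; all 4 secretion and R-spondin genes lie left of 0.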

How the data were processed

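Biotinylated cRNA from Trizol-extracted RNA was hybridised to Illumina mouse bead arrays. The methods name MouseWG-6 v2.0, whereas the probe table given belongs to a related RefSeq array. The authors deposited, for each array, the unnormalised signal intensity and a detection p-value per probe. Per the labels and methods, the authors also made normalised intensity values with lumi (version not given in the sources used here) by background subtraction, variance stabilisation and robust spline normalization; these deposited values are on a linear scale and served as an alternative. The sample labels give 1 µM 5-aza-dC and the methods a lower concentration, and the difference could not be settled.

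Here the unnormalised signals were background-corrected and quantile-normalised with neqc of limma 3.58.1 in R 4.3.3, with an offset of 16 and negative-control parameters inferred from the detection p-values. Probes with detection p under 0.05 on at least 2 of 8 arrays were kept, technical arrays were averaged within each biological replicate, and each gene was represented by its brightest kept probe. Groups (2 biological replicates each) were compared with lmFit and eBayes with trend, two-sided, with Benjamini-Hochberg adjustment over 9502 genes, and for single probes over 14308 probes. The number of arrays limits precision: the median SE was 0.12 log2 units. Where no array of a group detected a probe, its fold is a bound against each array's dimmest detected probe. Symbols were found for 23978 of 25697 probes, updated through Entrez identifiers where possible.

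The members and gene lists were chosen with earlier results of these data known. Named genes were all members, the 3 called genes per list with the largest difference, and the 3 genes nearest in pattern to the member that differed most. The fit was also tested on simulated data of 9502 genes, with 50 genes changed at each fold. It recovered 0 at 1.25-fold, 0 at 1.5-fold, 30 at 2-fold and 48 at 4-fold. Far fewer genes were changed there than were called here, so these rates do not carry over to these arrays. Alternatives covered normalization, offset, detection filter, probe summary, variance trend, replicate block, technical arrays entered singly and leaving out each replicate.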

Additional observations from a re-analysis of the deposited data

Results flagged for a closer look

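In 2 of 28 sets of 4 arrays, 1 array stood apart from the other 3 past the 95% critical value of Dixon's test. Chance alone trips this test in about 1 set in 20 where the 4 values are independent. Here each set held 2 technical arrays of each of 2 biological replicates, so that rate need not hold. For Sfrp1, array 1 of 5-aza-dC replicate 2 had a log2 level of 6.45, below the nearest other treated array at 6.70 and above every control array. For Wnt10a, array 2 of control replicate 2 had a log2 level of 6.37, below the nearest other control array at 6.55 and above every 5-aza-dC array. Both are differences between technical arrays of 1 sample.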

How the results depend on the processing

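Members were recomputed under 15 alternatives. Wnt10a, Wnt5a, Sfrp1, Sfrp2, Sfrp4 and Dkk3 kept direction and call under each, and Wif1 was called under none. Wnt4 lost its call with the authors' normalised values (0.21) and without control replicate 1 (0.29). Axin2, never called, changed sign with the authors' values (-0.001) and without 5-aza-dC replicate 2; leaving out 1 replicate gave -0.037 to 0.116 for it. Leaving out 1 replicate in turn gave 1568 to 2943 genes higher and 1676 to 2963 lower (2497 and 2444 with all), with 1568 and 1618 higher without control replicate 1 and 2; 2 to 3 members were higher and 4 lower throughout, and 11 to 18 other pathway genes were higher and 18 to 28 lower. A lone sample was there assumed to vary like the other group. Wnt2, Sostdc1 and Vangl1 lost their calls as given beside their values, and Wnt2 was not tested with detection required on 4 arrays. By list, receptors had 2 higher without 5-aza-dC replicate 1, and feedback and target genes 1 lower without control replicate 2 or with the replicate block and 4 lower without the detection filter. The causes were not tested.

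The labels number the replicates in both groups, but the numbers did not pair the samples (correlation of same-numbered deviations -0.63). With the replicate number as a block, 2177 genes were higher and 2208 lower, 3 members were higher and 4 lower, and 15 other pathway genes were higher and 20 lower. With the pairing crossed, an alternative chosen after seeing the data, these counts were 3043 and 3128, 3 and 4, and 18 and 24. Median scaling moved the median of all genes to -0.09 and left 3 members higher and 4 lower.

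Signal over background limits the dim probes: Wnt4, Sfrp4, Wif1 and Axin2 lay within about 1 log2 unit of the lowest detected level. So did Wnt10a on 5-aza-dC arrays and Sfrp1 on control arrays. In addition, 2 replicates a group leave small differences undetectable.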
